A study of Mus musculus with 8 samples.

Results

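The miR-34 family was followed after DNA damage in cultured mouse embryonic fibroblasts (MEFs), the connective-tissue cells that grow out of dissociated embryos. Its members were found by name, and 3 of the 346 miRNA names on the comparison sheets qualified: mmu-miR-34a, mmu-miR-34b-5p and mmu-miR-34c, each with 1 probe. miR-34b-3p and the miR-449 family, which carries the same seed, were looked for by name but listed on no sheet, so they could not be analysed. MEFs of littermate embryos were either ATM+/+ or ATM-/-, that is, with or without the kinase that relays a double-strand break in DNA to its effectors. Breaks were made with the radiomimetic agent neocarzinostatin (NCS), and cultures were harvested 0, 4, 8 or 24 h into the treatment. With 2 genotypes and 4 harvest times there were 8 single-colour arrays, 1 per genotype and time, so no time point has a replicate. The sources used here state neither the NCS dose nor the age of the embryos, nor how many lines each genotype had.

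miR-34 miRNAs are known as direct transcriptional targets of the tumour suppressor p53, which ATM signalling activates after DNA breaks. They repress cell cycle and survival genes such as cyclin-dependent kinases, Met and Bcl2. miR-34a has a gene of its own, whereas miR-34b and miR-34c are processed from a shared primary transcript.

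The sequences are shown because they define the family and set the limit on telling its members apart. They are RefSeq entries on build GRCm38.p6, written 5′ to 3′ with the shared seed (bases 2 to 8 of the mature miRNA) in capitals. The mature miR-34a-5p lies at chr4:150068473-150068494 on the plus strand, and miR-34b-5p lies at chr9:51103610-51103632 on the minus strand. The hairpins of miR-34b (chr9:51103562-51103645) and miR-34c (chr9:51103034-51103110) are 451 bases apart on the minus strand, and the miR-34a hairpin spans chr4:150068454-150068555.
mmu-miR-34a-5p: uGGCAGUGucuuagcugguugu
mmu-miR-34b-5p: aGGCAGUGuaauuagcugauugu
Mir34a hairpin: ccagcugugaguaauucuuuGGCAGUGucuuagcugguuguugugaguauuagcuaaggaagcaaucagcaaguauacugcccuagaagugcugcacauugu
Mir34b hairpin: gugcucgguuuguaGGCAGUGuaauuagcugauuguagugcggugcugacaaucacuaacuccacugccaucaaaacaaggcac
Mir34c hairpin: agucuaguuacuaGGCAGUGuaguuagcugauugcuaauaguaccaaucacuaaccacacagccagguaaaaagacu

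All 3 hairpins held the seed once. The stretch of the Mir34c hairpin that lines up with the 23 bases of miR-34b-5p matched it at 21 of them. It differed by A11G and U23C, counted from the 5′ end of miR-34b-5p. miR-34a-5p was 4 edits away from miR-34b-5p. Values for miR-34b-5p and miR-34c are given separately below, but whether their probes share signal was not tested, so counts over both may not rest on independent measurements.

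The authors deposited the responses in a pair of versions. The ratio table gives, for 431 probes, each array as a quotient over the 0 h array of the same genotype, and 272 of these probes have a name here. The comparison sheets give, for each treated array against its 0 h array, a normalized intensity with a coefficient of variation between spots, a log2 ratio and a p-value. On the log2 scale the median probe of the ATM+/+ arrays stood at 0.03, 0.23 and -0.12 after 4, 8 and 24 h. For the ATM-/- arrays these medians were -0.23, 0.03 and 0. As a check of the cell type, all 8 fibroblast or mesenchymal miRNAs of a marker list (among them miR-21, miR-199a and miR-143) were listed in both genotypes. Their 0 h intensities ran from 317 to 1524 in ATM+/+ and from 29.4 to 1027 in ATM-/- cells. Of markers of other cells, all 4 muscle miRNAs were listed, at 66.7 to 276 and 29.0 to 122. Of 6 epithelial markers, 3 were listed in ATM+/+ cells, at 19.4 to 368, which reaches above the lowest fibroblast marker, and 1 in ATM-/- cells at 164. In ATM+/+ cells 2 of 11 pluripotency markers (at most 58.8), 3 of 7 blood markers (at most 32.8) and 1 of 4 neural markers (24.7) were listed. In ATM-/- cells this was 0, 1 (32.3) and 0. The endothelial and liver markers and those of ciliated epithelium were listed in neither genotype. The part of other cells in the results was not tested. The arrays measure bulk RNA, in which fewer cells with a miRNA and less of it per cell cannot be told apart.

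In ATM+/+ cells the b/c cluster had some of the highest ratios to 0 h on each array, and miR-34a stood lower. miR-34b-5p was at 3.61, 2.91 and 2.94 times its 0 h value at 4, 8 and 24 h in the ratio table. Among the 431 probes it ranked 1 at 4 h, 7 at 8 h and 9 at 24 h. miR-34c was at 2.91, 4.03 and 3.99 times its 0 h value, with ranks of 5, 1 and 2. All 6 of these values for the cluster were above 2-fold, and all 6 stayed above it with the array's median taken off. miR-34a was at 1.78, 1.41 and 2.09 times its 0 h value, with ranks of 56, 124 and 39. It therefore passed 2-fold at 24 h alone. The background share past 2-fold was 7.19% of all probes at 4 h, 6.03% at 8 h and 10.4% at 24 h, against 2, 2 and 3 of the 3 members.

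In ATM-/- cells none of the members passed 2-fold upward, which 1.16%, 5.10% and 0.696% of all probes did at 4, 8 and 24 h. miR-34b-5p was at 0.53, 0.50 and 0.71 times its 0 h value at 4, 8 and 24 h. miR-34c was at 0.42, 0.85 and 0.73 times its 0 h value. Both thus lay below 0 h on all 3 treated arrays, as did 19.5% of all probes. miR-34a was at 1.06, 0.69 and 1.05 times its 0 h value, on either side of 0 h. At least 2-fold lower were miR-34c at 4 h and miR-34b-5p at 8 h, where 4.41% and 3.02% of all probes were so low. No member was so low at 24 h, where 2.55% of probes were. Neither miR-34b-5p nor miR-34c was listed on any ATM-/- sheet. Listed probes there had at least 18.2, 26.3 and 24.1 as the higher intensity of a pair at 4, 8 and 24 h. No source used here states the rule for listing, so how low the signal behind these ratios was is not known.

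**Figure D1:**
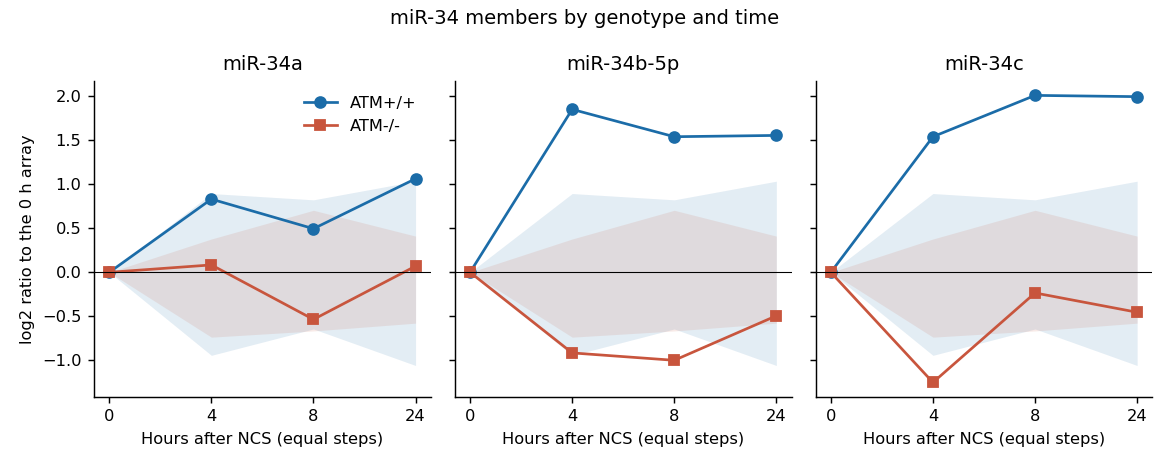
Each panel plots 1 member's log2 ratio to the 0 h array of its genotype against hours after NCS, with 1 array per point and shaded bands from the 10th to the 90th percentile of 431 probes in each genotype. miR-34b-5p and miR-34c lie above the ATM+/+ band at all 3 times, and miR-34a lies inside it at 4 and 8 h and just above it at 24 h.

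The ATM+/+ values were tested by taking the 3 treated times as repeats, in a linear model over all 431 probes (limma) with the 0 h array as the other arm. The mean log2 ratio was 1.65 ± 0.18 (SD over 3 times) for miR-34b-5p and 1.85 ± 0.27 for miR-34c. For miR-34a it was 0.80 ± 0.29. The limma standard errors, which include the single 0 h array, were 0.38, 0.45 and 0.41. No member passed the threshold, with Benjamini-Hochberg adjusted limma p values of 0.156, 0.175 and 0.370 for miR-34b-5p, miR-34c and miR-34a. The model called 0 of the 431 probes (0%), with 60 at an unadjusted p under 0.05, and by that p miR-34b-5p and miR-34c ranked 3 and 4. On the log2 ratios of the sheets, limma was fitted to the ATM+/+ arrays alone, over the 284 probes on all 3 of their sheets. Listed probes on these sheets had at least 21.5, 24.5 and 18.0 as the higher intensity of a pair at 4, 8 and 24 h. The 0 h intensities of miR-34b-5p were 18.0, 20.5 and 22.4. On the 4 and 8 h sheets only its treated value thus reached the listed range. Whether its rise decided its place in this fit was not tested. The fit called 24 of the 284 probes (8.45%), 5 higher and 19 lower. Among the 5 was miR-34b-5p, with a mean of 1.36 and an adjusted p of 0.0374. miR-34c (1.02, adjusted p = 0.0876) and miR-34a (0.60, adjusted p = 0.185) were not among them. Since miR-34b-5p reached the listed range of 2 sheets only by its treated value, its call is not taken as support for its rise.

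In ATM-/- cells the means were -0.80 ± 0.27 (SD over 3 times) for miR-34b-5p, -0.65 ± 0.54 for miR-34c and -0.13 ± 0.35 for miR-34a. Adjusted limma p values were all 0.996, with 0 of 431 probes (0%) called and 4 at an unadjusted p under 0.05. The 95% intervals reached from -1.64 to 0.03 for miR-34b-5p and from -1.64 to 0.34 for miR-34c. That of miR-34a, from -1.03 to 0.77, covers a wide range of changes in either direction.

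Setting the genotypes against each other asks whether the response differs with ATM. Each genotype had its own slide list and chips, so genotype and chip cannot be told apart. The 4 h ratios divide arrays of the same chip, while the 8 and 24 h ratios divide arrays of different chips. The part of the chip in the differences was not tested. The ratio to 0 h of miR-34b-5p was 6.81, 5.82 and 4.14 times higher in ATM+/+ than in ATM-/- cells at 4, 8 and 24 h. For miR-34c the same quotient was 6.93, 4.74 and 5.47. For miR-34a it was 1.68, 2.04 and 1.99. In the ratio table as deposited the genotypes did not overlap for any member: the lowest ATM+/+ log2 ratio was 1.54 for miR-34b-5p, 1.54 for miR-34c and 0.50 for miR-34a, against highest ATM-/- values of -0.49, -0.23 and 0.08. That pattern, with every ATM+/+ value above every ATM-/- value, was found in 26.7% of all probes. For miR-34a it depended on the scaling. With each array centred on its median its lowest ATM+/+ value was 0.27 and its highest ATM-/- value 0.32, and after quantile normalization they were 0.29 and 0.32. miR-34b-5p and miR-34c did not overlap under either scaling. miR-34b-5p and miR-34c were also above 0 h on every treated ATM+/+ array and below it on every treated ATM-/- array, as were 5.80% of all probes. A two-sided exact permutation test of 3 treated arrays against 3 gave p = 0.10 for each member, the smallest p this design allows. All ratios of a genotype share its single 0 h array, so the treated arrays are not independent repeats. Neither the lack of overlap nor this permutation p takes in the error of that array. For miR-34a the exact permutation p was 0.20 with centring and with quantile normalization, while it was 0.10 for miR-34b-5p and miR-34c. In the authors' deposited table the log2 ratio of miR-34a at 4 h was 0.67 in ATM+/+ and 0.63 in ATM-/- cells, a quotient of 1.03 where the ratio table gave 1.68. At 8 h the authors' deposited table gave 0.41 and -0.17, a quotient of 1.502 against 2.04.

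The mean difference on the log2 scale was 2.50 ± 0.28 (SD over 3 times) for miR-34c, 2.45 ± 0.37 for miR-34b-5p and 0.92 ± 0.15 for miR-34a. Counted from the highest signed difference (ATM+/+ minus ATM-/-) down, they ranked 1, 2 and 47 among the 431 probes, whose median was 0.17. In limma the difference of the responses had 95% intervals of 1.10 to 3.90, 1.27 to 3.63 and -0.35 to 2.20 for the same members. Adjusted limma p values were 0.485, 0.321 and 0.742, and 0 of 431 probes (0%) were called, with 27 at an unadjusted p under 0.05. The call depends on how the error is taken. With harvest time as a block among the treated arrays, limma called miR-34c and miR-34b-5p, both at an adjusted p of 0.00419, and not miR-34a (0.0610). That fit called 58 of 431 probes (13.5%), and it leaves out the error of both 0 h arrays, to which all ratios of a genotype are tied.

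**Figure D2:**
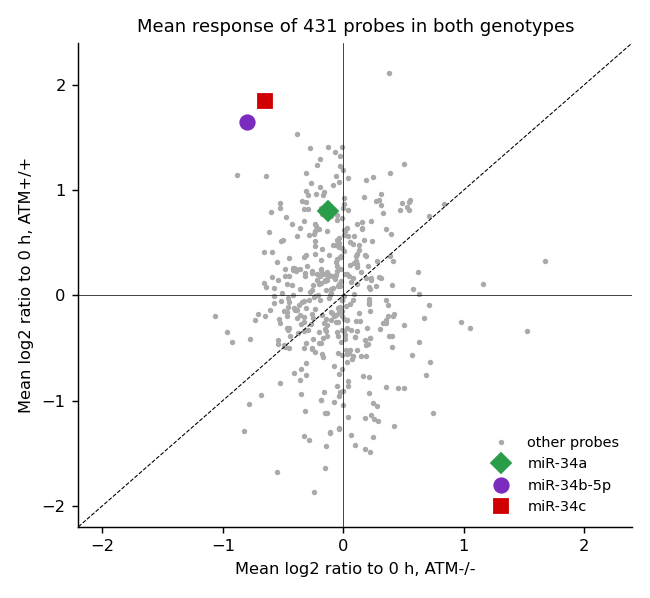
Each point is 1 of 431 probes, placed by its mean log2 ratio to 0 h over 3 times in ATM-/- cells (horizontal) and ATM+/+ cells (vertical), with the dashed line marking equal responses. miR-34b-5p (-0.80, 1.65) and miR-34c (-0.65, 1.85) lie at the upper left edge, and miR-34a (-0.13, 0.80) lies within the cloud.

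The single-gene miR-34a and the b/c cluster were then compared on the same array, where a scaling factor of the array cancels. In ATM+/+ cells the log2 ratio of miR-34b-5p exceeded that of miR-34a by 1.02, 1.05 and 0.49 at 4, 8 and 24 h. In ATM-/- cells the same difference was -1.00, -0.46 and -0.56. The cluster member thus stood above miR-34a on every treated ATM+/+ array and below it on every treated ATM-/- array. For miR-34c minus miR-34a the ATM+/+ arrays gave 0.71, 1.52 and 0.93 and the ATM-/- arrays -1.34, 0.30 and -0.52, again without overlap. Of the other 430 probes, 3.02% had a gap to miR-34a that was higher on every treated ATM+/+ array than on every treated ATM-/- array, these 2 included. The mean gap between genotypes was 1.53 for miR-34b-5p and 1.57 for miR-34c. Over these 2 comparisons the two-sided exact permutation p was 0.10 each, the smallest the design allows, so neither can pass a threshold of 0.05. The gaps of a genotype all rest on its single 0 h array, and this permutation p leaves out the error of that array. In the authors' deposited table, miR-34c exceeded miR-34a in ATM+/+ cells by 0.90 and 0.51 at 8 and 24 h but stood at -0.16 against it at 4 h. There miR-34b-5p exceeded miR-34a by 0.97, 0.87 and 0.43.

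**Figure D3:**
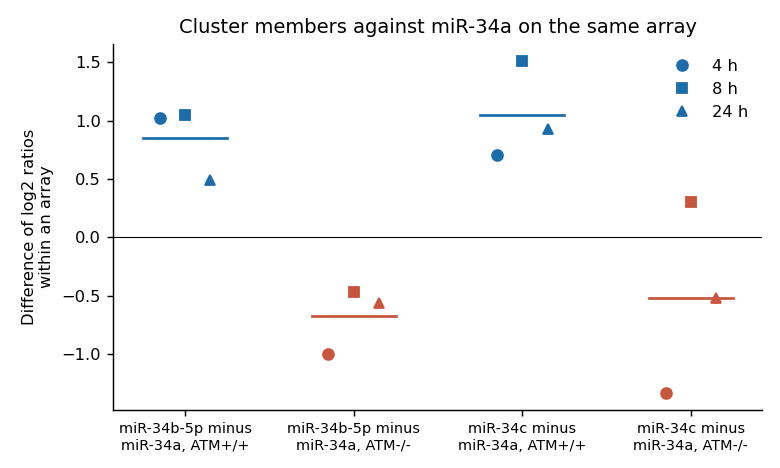
The vertical axis is the log2 ratio to 0 h of a cluster member minus that of miR-34a on the same array, with a symbol for each time and a line at the mean of 3 arrays. All ATM+/+ points lie between 0.49 and 1.52, and the ATM-/- points lie between -1.34 and 0.30.

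The order of the times was not the same for the members. From 4 to 8 h in ATM+/+ cells, miR-34b-5p moved by -0.31 on the log2 scale and miR-34c by 0.47, while the median of all probes moved by 0.18. From 8 to 24 h the cluster members moved by 0.01 and -0.01, against a median of -0.19. miR-34a moved by -0.34 from 4 to 8 h and by 0.57 from 8 to 24 h. The 0 and 4 h arrays of each genotype shared a chip, as did the 8 and 24 h arrays, so the step from 4 to 8 h also changes the chip. With arrays centred on their medians the 8 to 24 h steps of miR-34b-5p and miR-34c were 0.36 and 0.33, and after quantile normalization -0.07 and -0.19, so they have no settled direction. The 4 to 8 h step kept its sign under centring, quantile normalization and in the authors' deposited table. It ran from -0.65 to -0.31 for miR-34b-5p and from 0.27 to 0.80 for miR-34c. The miR-34c step starts from a 4 h reading whose spots had a coefficient of variation of 42.7%. That reading also differed by 1.03 on the log2 scale between the deposited versions. Without replicates these steps carry no test. Within ATM+/+ cells miR-34b-5p and miR-34c differed from each other by -0.31, 0.47 and 0.44 (miR-34c minus miR-34b-5p), which places neither of them above the other throughout.

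The intensities show how much signal lies behind the ratios. In the authors' deposited table, miR-34a in ATM+/+ cells went from 260 to 413 in the 4 h sheet, from 295 to 393 in the 8 h sheet and from 322 to 532 in the 24 h sheet. Its coefficient of variation between spots was 9.12% at 0 h and 13.0% to 14.8% after NCS. It was brighter than 79.2% to 80.2% of the probes listed at 0 h, so the response of miR-34a was read well above the dim end of the array.

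Signals of the cluster were lower by an order of magnitude, although levels of different probes are not directly comparable. miR-34b-5p went from 18.0 to 56.2, from 20.5 to 49.8 and from 22.4 to 49.9 in the 3 ATM+/+ sheets of the authors' deposited table. miR-34c went from 22.2 to 31.8, from 25.3 to 62.8 and from 27.6 to 64.9. At 0 h only 0.671% to 1.60% of listed probes were dimmer than miR-34b-5p, and 4.70% to 6.11% were dimmer than miR-34c. After NCS these shares were 25.8% to 39.9% for miR-34b-5p and 21.2% to 46.6% for miR-34c. The 0 h values that divide all ATM+/+ ratios of the cluster are thus among the dimmest on the sheets. A 0 h intensity differs between sheets, while its coefficient of variation does not, so the same spots carry another scale factor in each sheet.

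**Figure D4:**
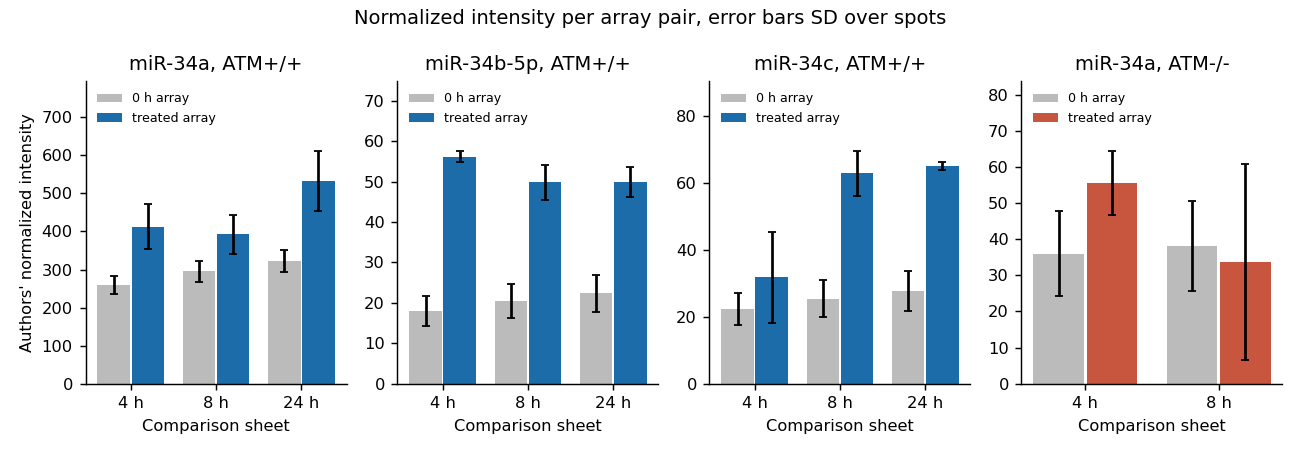
Bars give the authors' normalized intensity of the 0 h array (grey) and the treated array (coloured) in each comparison sheet, with error bars of 1 SD over the 3 spots of a probe and a separate vertical scale for each panel. In ATM+/+ cells treated bars exceed the 0 h bars beyond these errors for miR-34a and miR-34b-5p at all times and for miR-34c at 8 and 24 h. They do not for miR-34c at 4 h or for miR-34a in ATM-/- cells at either time.

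The p-values in the authors' deposited table compare the spots of 1 array with those of another, and so measure spot error and not the spread between cultures. In ATM+/+ cells the deposited p of miR-34b-5p was 7.35e-05 at 4 h, 0.00107 at 8 h and 0.00127 at 24 h. For miR-34a they were 0.0143, 0.0431 and 0.0124. For miR-34c they were 0.00168 and 0.000463 at 8 and 24 h but 0.315 at 4 h, where its spots had a coefficient of variation of 42.7%. A deposited p under 0.05 with a higher treated value was common, at 33.1%, 27.2% and 24.6% of the ATM+/+ probes listed at 4, 8 and 24 h. In ATM-/- cells the deposited p of miR-34a was 0.0841 at 4 h (intensity 36.0 to 55.6) and 0.813 at 8 h (38.1 to 33.8), and at 24 h it was not listed. Its spots there had a coefficient of variation of 32.9% at 0 h and of 15.9% and 80.2% at 4 and 8 h. At 0 h it was brighter than 30.8% and 18.2% of the probes on those sheets, against 79.2% to 80.2% in ATM+/+ cells.

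The value at 4 h for miR-34c differed most between the deposited versions. The ratio table put it at 2.91 times 0 h, and the authors' deposited table at 1.43 times (log2 ratio 0.51, SE over spots 0.40). At 8 and 24 h the sheets gave 2.48 and 2.35 times, against 4.03 and 3.99 in the ratio table. The gap between versions was 1.03, 0.70 and 0.76 on the log2 scale, while the median gap over the shared probes was 0.06, 0.16 and 0.34. miR-34b-5p was at 3.12, 2.43 and 2.23 times 0 h in the authors' deposited table, with gaps of 0.21, 0.26 and 0.40. miR-34a was at 1.59, 1.33 and 1.65 times, with gaps of 0.16, 0.08 and 0.34. In ATM-/- cells the gap of miR-34a ran the other way, at -0.54 and -0.36 at 4 and 8 h, while the median gaps there were 0.09 and 0.61. Its 4 h value was 1.06 times 0 h in the ratio table and 1.54 times in the authors' deposited table. In the sheets miR-34b-5p was thus at least 2-fold higher at all 3 times, miR-34c at 8 and 24 h and miR-34a at none, where 7.07%, 3.69% and 5.75% of listed probes were so high at 4, 8 and 24 h.

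**Figure D5:**
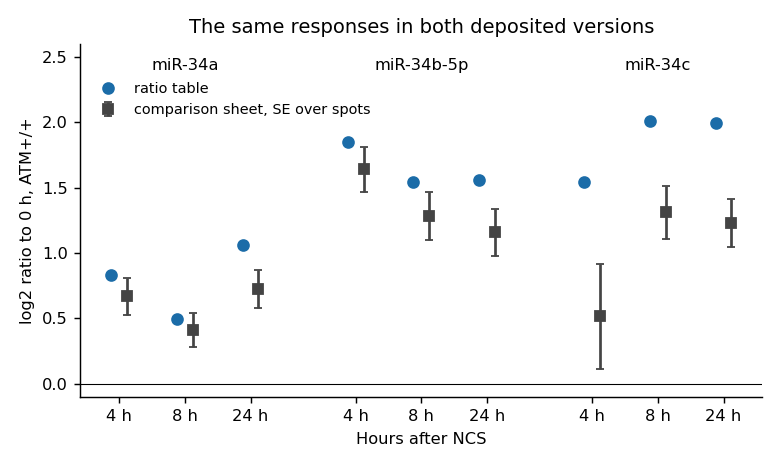
For ATM+/+ cells, circles give the log2 ratio to 0 h from the ratio table and squares that from the comparison sheets, with bars of 1 SE over spots. All squares lie above 0, and the widest separation is that of miR-34c at 4 h (1.54 against 0.51).

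miR-34a could also be set between genotypes before treatment, although the sheets of each genotype were normalized separately and the comparison has no replicate. In the 4 h sheets of the authors' deposited table its 0 h intensity was 260 in ATM+/+ and 36.0 in ATM-/- cells, a quotient of 7.21. Over the 178 probes listed in both, the median quotient was 1.90, and 15.2% of them had a quotient of at least 5. miR-34a ranked 17 of 178. Within the same probes it was brighter than 65.7% in ATM+/+ and than 28.1% in ATM-/- cells. The 8 h sheets gave a quotient of 7.75 against a median of 2.04 over 147 probes.

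Other miRNAs linked to p53 in the literature were taken from a list of 15 names, of which 9 were measured in the ratio table. They include miR-143, miR-145 and miR-16, whose processing p53 is reported to promote, and miR-107 and miR-22, reported as p53 targets. All 3 treated ATM+/+ arrays were above 0 h for 7 of the 9, against 33.6% of all probes. The 9 could come only from the 272 named probes, for which that share was not counted. None of the 9 averaged 2-fold, a mean that 6.03% of all probes reached. The mean log2 ratios of the 9 ran from -0.39 (miR-141, an epithelial miRNA) to 0.88 (miR-22). Their median was 0.64, against 0.01 over all probes and 0.17 over the named probes. None passed the limma threshold in either genotype or for the difference. At an unadjusted limma p under 0.05 there were 2 in ATM+/+ cells, namely miR-22 (0.88) and miR-143 (0.87), and 1 in ATM-/- cells, miR-143 (0.84). The difference between genotypes ran from -0.34 (miR-141) to 1.14 (miR-16), with a median of 0.39 against 0.17 over all probes and 0.22 over the named probes. miR-34a, at 0.92, fell inside that range next to miR-107 at 0.92, whereas miR-34b-5p and miR-34c lay above it. miR-143 had nearly the same mean in both genotypes.

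The patterns most like those of the members were sought among 270 other named miRNAs by the root mean square difference of log2 ratios over the 6 treated arrays. The nearest to miR-34a were miR-20b (0.15), miR-27a (0.19), miR-136 (0.20), miR-26b (0.21) and miR-382 (0.22), against a median of 0.65. Nearest to the mean of miR-34b-5p and miR-34c were miR-100 (0.34), miR-410 (0.48), miR-495 (0.49), miR-362-5p (0.57) and miR-199a-3p (0.60), against a median of 1.25. miR-34b-5p and miR-34c were 0.45 apart, and miR-34a was 0.81 and 0.98 from them. miR-100, miR-410, miR-495 and miR-362-5p, like the cluster, were listed on no ATM-/- sheet and had ATM+/+ 0 h intensities of 18.0 to 26.8. The part of low signal in these profiles was not tested.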

How the data were processed

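The authors hybridised total RNA, extracted with Trizol and labelled from 4 µg per the labels' protocols, to 8 arrays. Per the file headers, the deposited sheets hold normalized intensities, coefficients of variation, log2 ratios and p-values. The deposited ratio table holds a linear ratio to the 0 h array, with 1 in both 0 h columns of all 431 rows. The sources used here state neither scanner processing nor background correction nor the listing rule. All 1387 deposited p-values were recovered within 1% from an equal-variance comparison of 3 spots per array with 4 degrees of freedom, which also gave the SE over spots. Sheet columns were assigned through the authors' slide lists.

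Ratios were tested as log2 values with no pseudocount, in limma 3.58.1 (R 4.3.3) with Benjamini-Hochberg adjustment over all probes of a fit. Treated arrays of the genotypes were compared, for each member and each within-array gap, in exact permutation tests (scipy 1.17.1). Values of single arrays carried no test. In simulated data the ATM+/+ fit recovered 40.1% of log2 changes of 1 and 96.6% of log2 changes of 2, so it can miss a change of 1. The simulation changed a large part of the probes and drew each array independently, so these shares need not hold here. The text names all members, the listed p53-linked miRNAs and the 5 nearest miRNAs. The members and lists were chosen with earlier results of these data known. With treated times as repeats, p-values measure the spread between these arrays. Alternatives were the sheets' log2 ratios, centring, quantile normalization, an intensity trend, a dim-probe filter, each time left out, and time as a block. Chip as a block and named probes only were added after seeing the data. Chip as a block rests every response on the 4 h array, the only treated array that shares a chip with its 0 h array.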

Additional observations from a re-analysis of the deposited data

Results flagged for a closer look

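miR-34b-5p and miR-34c were above 0 h on all 3 treated ATM+/+ arrays and below 0 h on all 3 treated ATM-/- arrays, as were 5.80% of the 431 probes. Their mean differences of log2 ratios were 2.45 and 2.50. As opposite directions this was not tested, and all ratios of a genotype share its single 0 h array. The size of the difference was tested in limma, with adjusted p values of 0.321 and 0.485, and of 0.00419 for both with harvest time as a block. Neither member was listed on any ATM-/- sheet, so how low the signal behind their ATM-/- ratios was is not known. On the ATM+/+ sheets their 0 h intensities, from 18.0 to 27.6, were among the dimmest listed.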

How the results depend on the processing

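In limma the ATM+/+ response called 24 of 284 probes on the sheets' log2 ratios, in a fit of that genotype alone. The difference called 58 of 431 probes with harvest time as a block. The fits reported first called 0 each, as did every other setting run, in either genotype or for the difference. On the sheets miR-34b-5p was called in ATM+/+ cells, at 1.36 (adjusted p = 0.0374). On the 4 and 8 h sheets its 0 h intensity was below the higher intensity of every listed pair. Its place in that fit may therefore depend on its rise, so its call there is not taken as support for the rise. With the time block miR-34b-5p (2.45) and miR-34c (2.50) were called for the difference. miR-34a in ATM-/- cells turned from -0.13 to 0.077 without the 8 h arrays, so it has no settled direction. Chip as a block gave 0.084 for it, which is its 4 h value. The chip of the 8 and 24 h arrays holds no 0 h array, so that setting rests on the 4 h array alone. Over all settings that gave a value, the ATM+/+ response ran from 1.36 to 1.85 for miR-34b-5p, from 1.02 to 2.004 for miR-34c and from 0.55 to 0.95 for miR-34a. The difference ran from 2.30 to 2.77, from 2.35 to 2.79 and from 0.64 to 1.01. The upper ends of 1.85, 2.77 and 2.79 came from chip as a block and are thus 4 h values. Without the 4, 8 or 24 h arrays the difference kept its direction for all members. The within-array gaps ran from 1.28 to 1.84 for miR-34b-5p and from 1.34 to 1.84 for miR-34c.

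The dim-probe filter (mean intensity above 41.3) removed miR-34b-5p and miR-34c from the ATM+/+ fit and all members from the others, and no member was on all 3 ATM-/- sheets, so the sheets gave no fit of a member for ATM-/- cells or the difference. miR-34a was on the 4 and 8 h sheets, where the genotype difference was 0.04 and 0.59 against 0.75 and 1.03 in the ratio table. Its exact permutation p between genotypes went from 0.10 to 0.20 under centring and quantile normalization, where the genotypes overlapped. The intensity trend could be fitted to the 272 named probes only. The labels give no replicate numbers, so harvest time as a block was the only pairing of the genotypes. Low signal limits the cluster at 0 h in ATM+/+ cells and miR-34a in ATM-/- cells. The cluster was listed on no ATM-/- sheet, so how low its signal was there is not known. Signal over background was not measured here.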

Other observations

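Probes whose spots disagreed differed more between the deposited versions. In the ATM+/+ sheet at 4 h, 32 probes shared with the ratio table had a coefficient of variation above 30% on the treated array, miR-34c among them. Their median absolute gap between versions, after the array's median gap was taken off, was 0.43 on the log2 scale, against 0.09 for the other shared probes. At 8 and 24 h the same medians were 0.35 and 0.32 for such probes and 0.09 and 0.10 for the rest. miR-34c was not such a probe at 8 or 24 h.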
